A study of Mus musculus with 9 samples.

Results

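Open chromatin around 8 genes of antigen presentation by MHC class II was read from ATAC-seq, a method that marks accessible DNA by letting a transposase (Tn5) cut it and attach adapters. The genes were H2-Ab1, H2-Aa and H2-Eb1, which encode chains of the class II molecules themselves, H2-DMa, H2-DMb1 and H2-DMb2, which encode chains of the peptide editor H2-DM, Cd74, which encodes the invariant chain, and Ciita, the class II transactivator gene. A site belonged to them if a peak of one of the deposited lists lay in a gene body or within 10 kb on either side, and a site shared by neighbouring genes was counted once. Overlapping peaks of any lists (1 bp or more) made up 1 region. This gave 25 regions of 36843 in the series. The converted list called 4 of them, the resident list 12 and the monocyte-derived list 24.

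The 9 samples were sorted peritoneal macrophages of mice, 3 in each of 3 groups. The tissue-converted group had received 2 ml of thioglycollate, which provokes a sterile peritonitis with an influx of monocytes, and was on a tamoxifen diet without break for 8 weeks until harvest. No treatment specific to the tissue-resident group is named. Monocyte-derived macrophages were taken on day 4 after 2 ml of thioglycollate. All mice had the genotype Cx3cr1CreERT2-IRES-EYFP/+ Rosa26-stopfl-tdTomato/+, so that Cre is made under Cx3cr1 control and, once tamoxifen activates it, switches on tdTomato. In all of them injections of IL-4 (5 µg) complexed with its antibody (25 µg) were given on alternate days starting 4 days before the harvest. IL-4 raises class II in macrophages, and every group received it. On the sort gates and on the age and sex of the mice nothing was stated. Treatment differed along with cell origin and cannot be told apart from it.

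Each group has 1 merged peak list and no replicate values. No difference below has a spread between replicates, no test between groups was possible, and sequencing depth is unknown. Absence from a list can mean closed chromatin or a signal too low to call. In bulk samples, fewer cells with an open site and less opening per cell cannot be told apart. The lists held 15552 converted, 24348 resident and 33694 monocyte-derived peaks, so lower counts in the tissue lists were general. The p-values given with single sites are those the authors' peak calling gave to each peak (the smallest where a list had several in a region); they say how strong a peak was, and compare no groups. Intervals in parentheses are 95% Wilson intervals, which cover counting error over regions only.

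MHC class II molecules carry peptides of endocytosed proteins to CD4+ T cells. The invariant chain holds the peptide groove closed until the endosome, and H2-DM then exchanges its remnant for antigenic peptides. The promoters of these genes share a module of X and Y boxes, bound by the RFX complex, CREB and NF-Y. CIITA does not bind DNA by itself but is recruited by these factors and switches the genes on. In the peritoneum, large resident macrophages are known for low and small, monocyte-derived ones for high class II.

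The promoter sequences are shown because the module lies in some of the open regions and not in others. RefSeq (GRCm38.p6) promoters, from 250 bases before to 50 after a transcript start, were at hand for 5 of the 8 genes (H2-Aa, H2-Eb1, H2-DMa, H2-DMb1 and H2-DMb2). Capitals mark matches on either strand to AACNGATG (core of the X box), TGACGTCA (X2 box, a CREB site) or GATTGG (Y box). These letters were chosen after the promoters had been read. All 5 are on chromosome 17 and run 5′ to 3′ on the strand of the gene: H2-Eb1 at chr17:34305617-34305916 (+), H2-DMb1 at chr17:34152941-34153240 (+), H2-DMb2 at chr17:34144999-34145298 (+), H2-Aa at chr17:34287774-34288073 (-), and the first of the H2-DMa promoters at chr17:34122582-34122881 (+).
H2-Eb1: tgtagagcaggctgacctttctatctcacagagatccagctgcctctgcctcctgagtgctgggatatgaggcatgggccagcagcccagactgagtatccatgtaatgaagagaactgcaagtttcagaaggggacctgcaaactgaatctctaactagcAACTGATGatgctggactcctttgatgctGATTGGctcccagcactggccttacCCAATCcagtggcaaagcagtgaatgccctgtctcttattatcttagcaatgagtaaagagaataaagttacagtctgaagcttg
H2-DMb1: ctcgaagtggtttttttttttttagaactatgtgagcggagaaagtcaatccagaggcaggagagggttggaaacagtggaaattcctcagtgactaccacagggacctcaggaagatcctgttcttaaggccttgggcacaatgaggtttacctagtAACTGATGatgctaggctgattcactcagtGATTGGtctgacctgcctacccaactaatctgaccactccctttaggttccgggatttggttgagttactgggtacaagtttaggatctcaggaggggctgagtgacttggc
H2-DMb2: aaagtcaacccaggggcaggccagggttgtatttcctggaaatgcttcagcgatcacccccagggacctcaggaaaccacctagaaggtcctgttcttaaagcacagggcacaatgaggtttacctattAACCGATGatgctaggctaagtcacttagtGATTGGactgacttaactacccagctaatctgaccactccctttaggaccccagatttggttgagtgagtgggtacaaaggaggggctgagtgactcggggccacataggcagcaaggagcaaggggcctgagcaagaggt
H2-Aa: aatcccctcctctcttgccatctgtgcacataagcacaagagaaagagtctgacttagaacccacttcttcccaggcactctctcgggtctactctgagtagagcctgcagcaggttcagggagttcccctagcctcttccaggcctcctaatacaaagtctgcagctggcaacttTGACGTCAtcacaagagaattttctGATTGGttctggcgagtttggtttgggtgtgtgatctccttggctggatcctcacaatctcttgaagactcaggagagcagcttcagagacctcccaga
H2-DMa: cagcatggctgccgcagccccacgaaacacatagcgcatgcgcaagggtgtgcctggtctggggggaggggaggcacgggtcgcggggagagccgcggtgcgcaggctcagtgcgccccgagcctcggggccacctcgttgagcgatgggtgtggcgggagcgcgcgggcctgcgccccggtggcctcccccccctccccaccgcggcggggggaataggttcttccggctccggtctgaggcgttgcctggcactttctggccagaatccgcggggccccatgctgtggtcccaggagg

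H2-Eb1, H2-DMb1 and H2-DMb2 had an X core followed by a Y core on the same strand, with 29 bases between the first bases of the cores in H2-Eb1 and 30 in each H2-DMb promoter. Such an ordered pair within 50 bases was found in 8 of 32851 promoters in the table (0.0244%), and H2-Eb2, a neighbouring class II gene, was another of the 8. The rest were BC051142 on chromosome 17, G3bp2 on chromosome 5, Scgb2b20 on chromosome 7 and Gm35444 on chromosome 13. Because the letters were chosen after the promoters had been read, this low share is no test. Either core alone was commoner: 2.32% of promoters held AACNGATG and 16.1% held GATTGG. H2-Aa had TGACGTCA, found in 1.79% of promoters, and GATTGG, with no AACNGATG. No core lay in the H2-DMa window shown. A match is only a match of letters, and binding was not measured.

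No converted peak touched any of the 5 genes' promoter windows, against a background of 20.7% of 27025 genes in the table. At H2-DMa this turned on the window's edge, as a converted peak ended at 34122563 and the window began at 34122582. Resident peaks touched 3 of 5 (background 25.6%), and monocyte-derived peaks touched 3 of 5 (background 30.8%). In H2-Eb1 a resident peak (bases 98 to 222 of the sequence) and a monocyte-derived peak (bases 73 to 247) both covered the X and the Y core. In H2-DMb1 the resident peak (bases 74 to 173) covered the X core alone, while the monocyte-derived peak (bases 74 to 223) covered both. The remaining gene touched in both lists was H2-DMa. Its peaks lay in DNA that also belongs to the body of the neighbouring gene Brd2, in the printed window without a core. The other H2-DMa promoter, with its start at 34125518, had no peak in any list. H2-DMb2 and H2-Aa had no peak over the window in any list. H2-DMb1 and H2-DMb2 are near copies, with 84.3% identical bases among the aligned positions of these promoters. The placing of reads that match both was not stated, so their counts are uncertain.

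Counted per gene, converted cells had fewer regions than monocyte-derived cells at all 8 genes, where 71.3% of 13730 protein-coding genes with a region in some list did so. The median difference, converted minus monocyte-derived, was -2.5 regions per gene for the 8 genes and -1 for all genes. Resident cells had fewer regions than monocyte-derived cells at 7 genes (background 55.2%) and more at 1, Ciita (background 12.0%). No gene had more converted than monocyte-derived regions (background 2.86%) or more converted than resident regions (background 7.00%). The median difference, resident minus monocyte-derived, was -1 both for the 8 genes and for all genes. Converted cells had fewer regions than resident cells at 6 genes (background 46.0%) and as many at H2-Aa and H2-DMa. Of the 8 genes 5 had no converted region (background 31.9%), while none lacked a resident region (background 14.9%) or a monocyte-derived region (background 5.20%). The 3 comparisons reuse the same lists and are not independent of each other. Each of the 8 genes had 2 to 9 regions over all lists, while the backgrounds take in genes with only 1. The backgrounds were not matched for this number, and a window with more regions leaves more room for a difference.

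**Figure D1:**
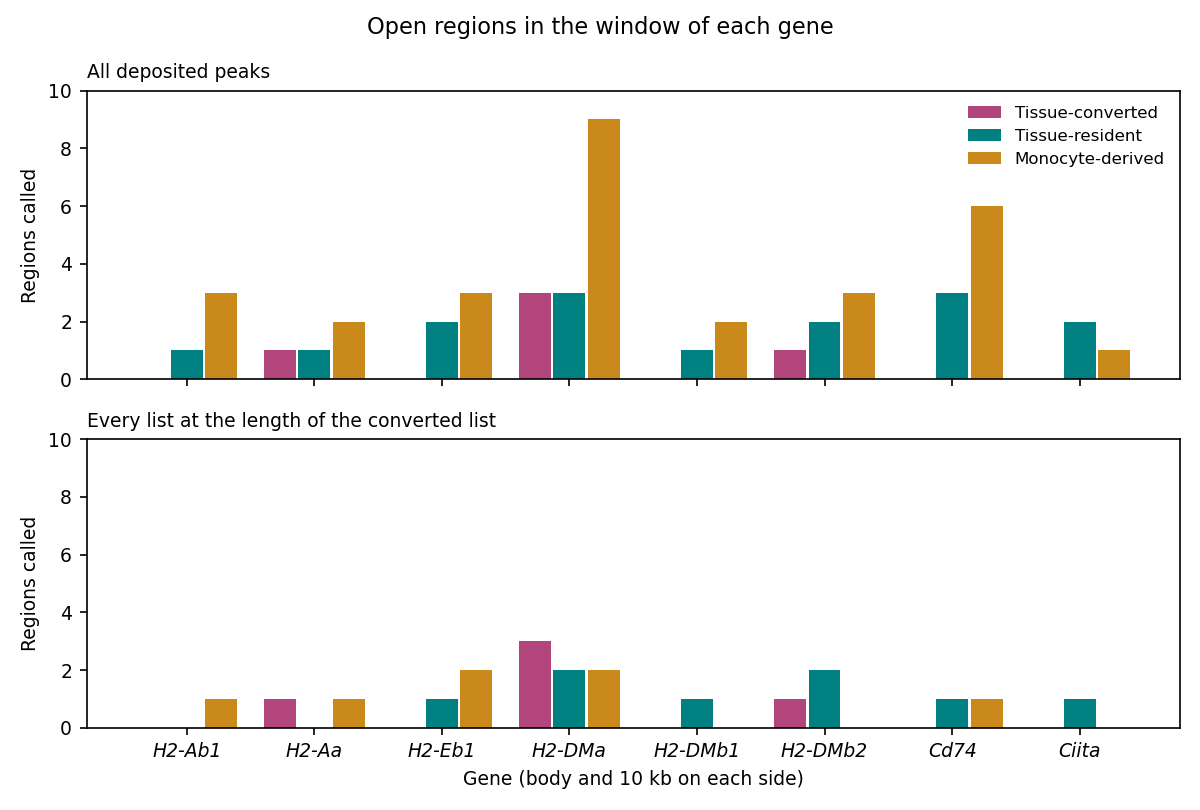
Number of open regions called in the body and 10 kb on each side of each of the 8 genes (x axis), with bars for the tissue-converted, tissue-resident and monocyte-derived lists, for all deposited peaks (upper plot) and for lists cut to the 15552 peaks of smallest p-value (lower plot, where peaks tied at the limit were kept in an arbitrary order). In the upper plot H2-DMa stands at 3 converted, 3 resident and 9 monocyte-derived regions and Cd74 at 0 converted, 3 resident and 6 monocyte-derived; in the lower plot H2-DMa stands at 3 converted, 2 resident and 2 monocyte-derived regions.

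The counts changed with list length. With every list cut to the 15552 peaks of smallest p-value, 4 converted, 6 resident and 7 monocyte-derived regions were left in the windows. Converted cells then had fewer regions than monocyte-derived cells at 3 genes and more at 2 (backgrounds 33.9% and 23.4%). Resident cells had fewer at 3 and more at 3 (backgrounds 35.0% and 28.6%), and converted fewer than resident at 5 and more at 2 (backgrounds 29.6% and 26.1%). The cut fell among tied peaks, 4107 at p-value 8.27e-06 in the resident list and 1101 at 3.02e-06 in the monocyte-derived list. Beyond width, which of them were kept followed chromosome and position and is arbitrary. With all tied peaks left out, 4 converted, 5 resident and 5 monocyte-derived regions remained, and with all kept there were 4 converted, 10 resident and 7 monocyte-derived regions. Resident minus monocyte-derived was then 0 with the ties left out and 3 with them kept, against -1 at the exact cut. Without the ties the lists held 13675 resident and 15091 monocyte-derived peaks, and with them 17782 resident and 16192 monocyte-derived. The lengths thus differed in opposite directions. The lower resident count was small at the exact cut and did not hold under the other 2 treatments of ties. The gene counts for the cut lists rest on these ties too.

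H2-Ab1 encodes the beta chain of the I-A molecule (chromosome 17, 34263227 to 34269418). It had 0 converted, 1 resident and 3 monocyte-derived regions. The region nearest to the gene, 34263064 to 34263213, ended 14 bp short of its lower-coordinate end and was called in the monocyte-derived list alone, at p-value 3.0e-06. Another monocyte-derived region lay 1.44 kb before that end. The third, 34257689 to 34257888, lay 5.34 kb before it inside the non-coding gene Gm20506, with p-value 8.27e-06 in the resident list and 3.55e-06 in the monocyte-derived list. No call fell inside the gene body. In the cut lists H2-Ab1 had its monocyte-derived region at the gene end, and the resident region, tied at the limit, was kept or lost with the tied peaks.

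H2-Aa encodes the alpha chain that pairs with it (34282744 to 34287823, minus strand). It had 1 converted, 1 resident and 2 monocyte-derived regions, all upstream of its start and outside genes. The nearer one, 34291689 to 34291838, was 3.87 kb upstream and was called in converted cells at p-value 3.77e-07 and in monocyte-derived cells at p-value 3.02e-06, with no resident call. Of the 4 converted regions at class II genes it had the smallest p-value, with 35.7% of the converted list's peaks below it. The farther one, 34296089 to 34296313, lay 8.27 kb upstream, also within the H2-Eb1 window, and was called in resident (p-value 1.20e-05) and monocyte-derived cells (p-value 4.87e-06). Thus the tissue lists had 1 site each here, but not the same site.

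H2-Eb1 encodes the beta chain of the I-E molecule (34305867 to 34316674). It had 0 converted, 2 resident and 3 monocyte-derived regions. Its promoter region, 34305689 to 34305863, ended 4 bp before the transcript start, at p-value 6.37e-06 in the resident list and 1.50e-06 in the monocyte-derived list. This is the region that holds the X and Y cores shown above. A further region 0.879 kb upstream, 34304789 to 34304988, was monocyte-derived only. At equal list lengths 1 resident and 2 monocyte-derived regions were left, the promoter among them in both lists.

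**Figure D2:**
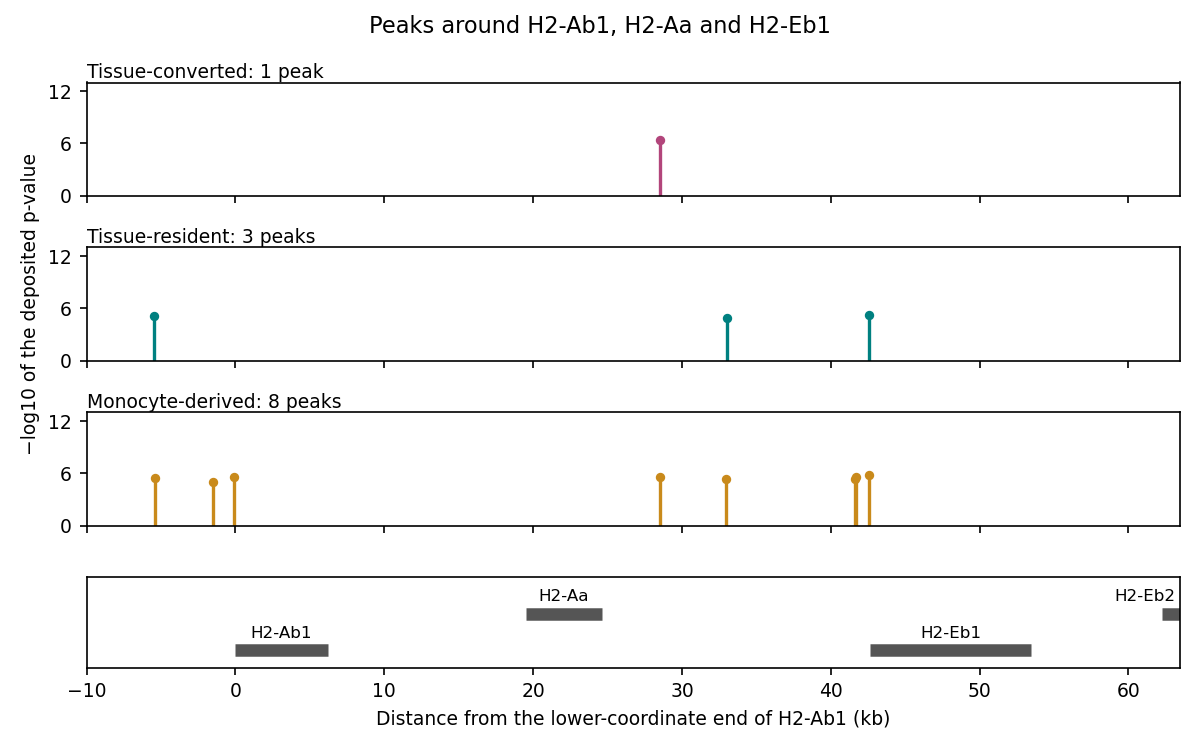
Deposited peaks around H2-Ab1, H2-Aa and H2-Eb1, placed by the distance of their centres from the lower-coordinate end of H2-Ab1 (x axis, kb), with the −log10 of the authors' p-value as height (y axis) and a row each for the tissue-converted, tissue-resident and monocyte-derived lists; gene bodies are drawn below. There are 1 converted, 3 resident and 8 monocyte-derived peaks, and the single converted peak stands between H2-Aa and H2-Eb1.

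H2-DMa encodes the alpha chain of H2-DM (34119693 to 34139101, a body that overlaps that of Brd2 in RefSeq). It had 3 converted, 3 resident and 9 monocyte-derived regions, the most of the 8 genes. Of the 9, 7 touched the body of Brd2, a broadly expressed bromodomain gene on the opposite strand. Of its listed promoter starts, the nearest, 34122607, lies 225 bp from the first H2-DMa start, while its annotated body reaches 34122814. Without those 7, H2-DMa had 1 converted, 1 resident and 2 monocyte-derived regions, and all 8 genes together had 2 converted, 10 resident and 17 monocyte-derived regions. The count at H2-DMa thus rested largely on DNA that also belongs to Brd2.

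Around these starts the lists called neighbouring but separate sites. Converted peaks lay at 34122364 to 34122438 (p-value 6.93e-06) and 34122489 to 34122563 (p-value 4.70e-06), downstream of that Brd2 start. The resident peak lay at 34122664 to 34122738 (p-value 5.63e-06), 100 bp beyond the second converted peak. It was between those listed starts but, like the converted peaks, inside the annotated Brd2 body. Monocyte-derived peaks overlapped all 3 of these peaks. With peaks within 200 bp merged, H2-DMa had 2 converted, 3 resident and 5 monocyte-derived regions.

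The widest and strongest class II region was also in Brd2. At 34119064 to 34119638, 55 bp outside the annotated H2-DMa gene, a monocyte-derived peak of 575 bp reached the lowest p-value of the list, 1e-12. The resident peak inside it was 75 bp wide with p-value 8.27e-06, and no converted peak was called. It was the only one of 26 monocyte-derived peaks in the windows at that floor (3.85%, 0.682 to 18.9%), against 18.5% of all monocyte-derived peaks.

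Inside H2-DMa, 34135339 to 34135613 was the only one of the 25 regions called in all 3 lists. Its smallest p-values were 9.72e-06 in converted, 3.39e-06 in resident and 3.55e-06 in monocyte-derived cells. It lay 3.49 kb before the higher-coordinate end of the gene, and also in the H2-DMb2 window. In the converted list it was among the weaker calls, with 90.2% of peaks at smaller p-values. The resident list placed it higher, with 20.9% of peaks below it. Across the series, 28.1% of regions were called in all 3 lists, against 4.00% of the class II regions (0.710 to 19.5%). These shares were not matched for peak strength.

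H2-DMb1, which encodes a beta chain of H2-DM (34153191 to 34160229), had 0 converted, 1 resident and 2 monocyte-derived regions. H2-DMb2, which encodes the other beta chain (34143229 to 34151553), had 1 converted, 2 resident and 3 monocyte-derived regions. The windows of these adjacent genes share sites. The H2-DMb1 promoter region, 34153014 to 34153163, ended 28 bp before the transcript start, at p-value 3.39e-06 in the resident list and 5.24e-06 in the monocyte-derived list. It stood at the same rank as the site inside H2-DMa in the resident list. A region at the annotated lower-coordinate end of H2-DMb2, 34143139 to 34143288, was monocyte-derived only (p-value 4.10e-06). It was 1.96 kb upstream of the H2-DMb2 start used for the printed promoter.

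**Figure D3:**
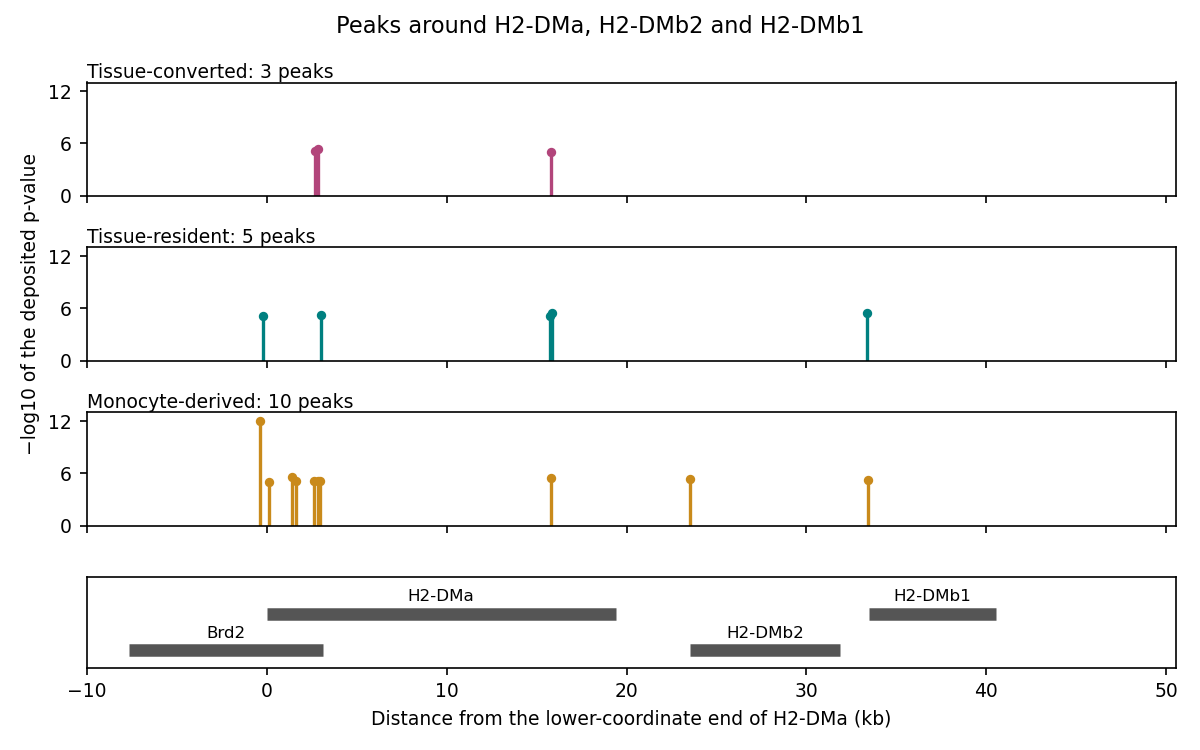
Deposited peaks around H2-DMa, H2-DMb2 and H2-DMb1, placed by the distance of their centres from the lower-coordinate end of H2-DMa (x axis, kb), with the −log10 of the authors' p-value as height (y axis) and a row each for the tissue-converted, tissue-resident and monocyte-derived lists; gene bodies, Brd2 included, are drawn below. There are 3 converted, 5 resident and 10 monocyte-derived peaks, and the 1 peak at 1e-12 stands just left of the H2-DMa end, within Brd2.

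Cd74, the invariant chain gene, lies apart on chromosome 18 (60803849 to 60812652). It had 0 converted, 3 resident and 6 monocyte-derived regions, none farther than 3.49 kb from its lower-coordinate end. Among 549 protein-coding genes with 6 regions in their window, 58 had none in the converted list (10.6%, 8.26 to 13.4%). The share was 24.1% for genes with 3 regions, as at H2-Ab1 and H2-Eb1. For genes with 2 regions, as at H2-DMb1 and Ciita, it was 34.2%. These genes were not matched for peak strength. The region outside Cd74, 60803589 to 60803738, was 111 bp from its lower-coordinate end, at p-value 5.63e-06 in resident and 3.37e-06 in monocyte-derived cells. Inside the gene, 60805839 to 60805988 had p-value 8.27e-06 in resident and 3.77e-07 in monocyte-derived cells, and 60807339 to 60807538 had p-value 8.27e-06 in resident and 4.10e-06 in monocyte-derived cells. The other 3, all inside the gene, were monocyte-derived only. In the cut lists Cd74 had 0 converted regions and 1 monocyte-derived region, and 1 resident region with tied peaks left out or 3 with them kept.

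Ciita, the transactivator gene (chromosome 16, 10480014 to 10531064), was the member with more resident than monocyte-derived regions. It had 0 converted, 2 resident and 1 monocyte-derived region, all inside its 51.1 kb body. The first, 10500789 to 10500988, lay 20.8 kb from the lower-coordinate end, at p-value 8.43e-06 in resident and 6.91e-06 in monocyte-derived cells. The second, 10516139 to 10516213, also within a non-coding gene (LOC115488669), was 75 bp wide and resident only (p-value 8.27e-06). It was the only one of the 25 regions that the monocyte-derived list lacked. All of these were weak calls, with 56.2 to 82.5% of the peaks of their lists at smaller p-values. None lay within 1 kb of a gene end, so no call stood at either annotated end of Ciita. With 50 kb on each side Ciita had 3 converted, 4 resident and 4 monocyte-derived regions, and the resident excess was gone.

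**Figure D4:**
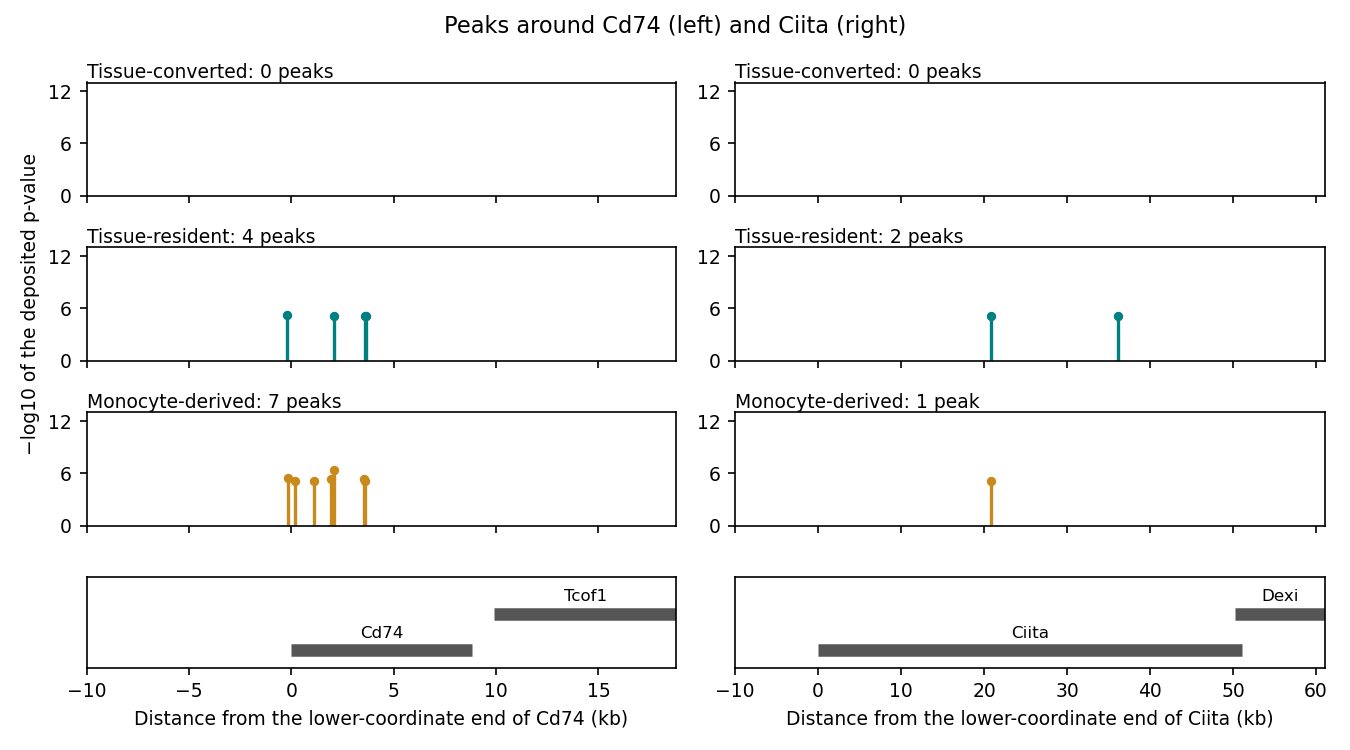
Deposited peaks around Cd74 (left) and Ciita (right), placed by the distance of their centres from the lower-coordinate end of the gene (x axes, kb), with the −log10 of the authors' p-value as height (y axis) and a row each for the tissue-converted, tissue-resident and monocyte-derived lists; gene bodies are drawn below. The converted rows are empty, against 4 resident and 7 monocyte-derived peaks at Cd74 and 2 resident and 1 monocyte-derived peak at Ciita.

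Counted by site, the 25 regions fell mainly into 2 classes. Regions of resident and monocyte-derived cells without a converted call numbered 10 (40.0%, 23.4 to 59.3%), against 14.4% of all regions. Monocyte-derived-only regions also numbered 10, against 39.5% of all regions. Of the other 5, 3 were converted and monocyte-derived, 1 was in all lists and 1 was resident only. No region was converted only or shared by the tissue lists alone. The shares over all regions were not matched for peak strength.

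Of 12 resident regions at class II genes, 1 was also called in converted cells (8.33%, 1.49 to 35.4%), where 54.3% of all resident regions were. All 12 had resident p-values above 3e-06, and among all resident regions above that limit 41.9% recurred (41.1 to 42.6%). The limit is broad, taking in 15735 of 20404 resident regions, so strength was matched only loosely and width not at all. Resident peaks in the class II windows had a median p-value of 8.27e-06 and a median width of 75 bp. The whole resident list had 6.37e-06 and 125 bp. Near gene ends, none of 5 recurred (0 to 43.4%), against 65.6% of all resident regions near gene ends, a share not matched for strength. In the other direction, 11 of 12 resident regions were monocyte-derived regions too (91.7%, 64.6 to 98.5%). The share was 76.7% of all resident regions and 70.6% of those with p above 3e-06. The genes were chosen with earlier results of these data known, so these shares describe the sites and are not a test.

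Monocyte-derived sites recurred in converted cells at 4 of 24 (16.7%, 6.68 to 35.9%), with a background of 37.0%. Among sites with p above 3e-06 the shares were 19.0% at class II genes (4 of 21) and 20.6% overall. In resident cells 11 of 24 recurred (45.8%, 27.9 to 64.9%), with a background of 49.6%. At p above 3e-06 these shares were 38.1% (8 of 21) and 34.9%.

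**Figure D5:**
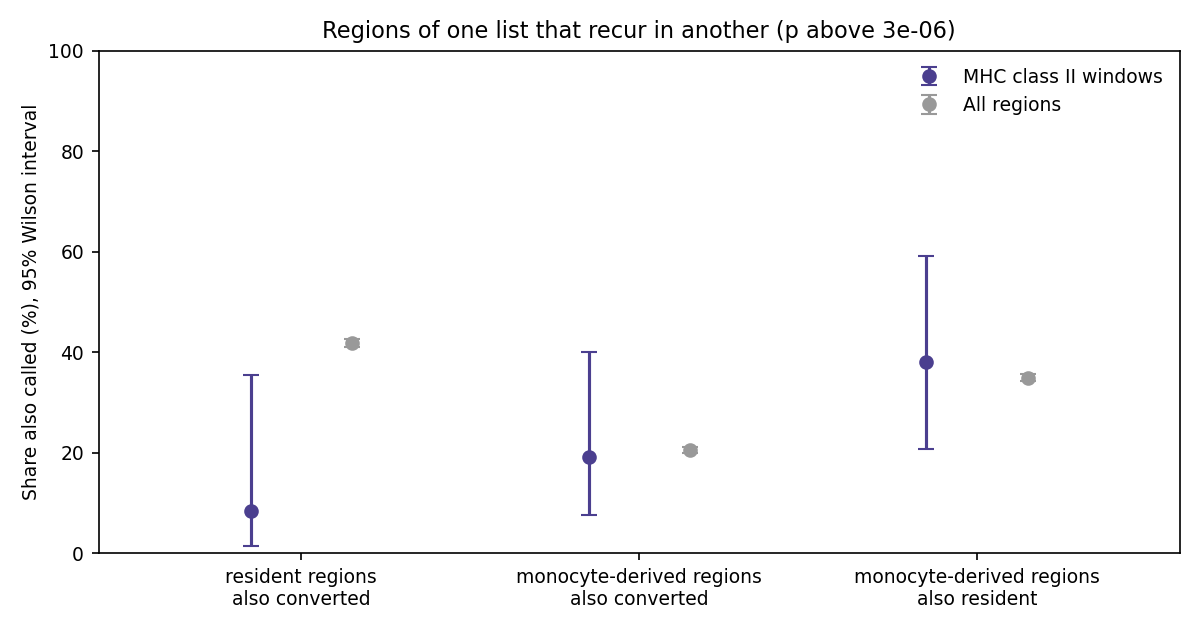
Share of regions of one list that were also called in another (y axis, percent, with 95% Wilson intervals as bars), for regions with p above 3e-06 in the first list, in the class II windows (violet) and over the series (grey). The share of resident regions also called in converted cells was 8.33% in the class II windows and 41.9% over the series. For monocyte-derived regions the shares were 19.0% and 20.6% in converted cells, and 38.1% and 34.9% in resident cells. The intervals cover counting error over regions only. Strength was matched only by the limit of 3e-06, and the genes were chosen with earlier results known, so the shares are not a test.

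Pooled over the genes, the windows were dense in calls but the calls were weak. Per 100 kb they held 1.71 converted, 5.13 resident and 10.3 monocyte-derived regions, against 0.870 converted, 1.32 resident and 2.01 monocyte-derived in the windows of all protein-coding genes. This density was not shared by every window. Converted regions per 100 kb were 4.96 in the joined H2-DM windows and 1.36 in those of H2-Ab1, H2-Aa and H2-Eb1. They were 0 at Cd74 and 0 at Ciita. Ciita held 2.81 resident and 1.41 monocyte-derived regions per 100 kb, the latter below the 2.01 of all genes. With the Brd2 gene body left out, 2 of the 4 converted regions remained. Of 4 converted peaks 1 had p at most 3e-06 (25.0%), against 47.5% of the list. None of 14 resident peaks did, against 19.8% of the list, and 3 of 26 monocyte-derived peaks did (11.5%), against 42.5%. Median peak widths were 87.5 bp in converted, 75 bp in resident and 125 bp in monocyte-derived cells, where the whole lists had 125 bp in converted, 125 bp in resident and 150 bp in monocyte-derived cells. Within 1 kb of a gene end lay 12 of the 25 regions (48.0%), against 37.1% of all.

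The region 34143139 to 34143288 crossed the edge of the H2-DMb1 window. Of the sites wholly inside a gene's own window, the nearest to an edge was 34296089 to 34296313, 0.222 kb inside that of H2-Eb1 and 1.51 kb inside that of H2-Aa. It was followed by the site inside H2-DMa, 2.11 kb within the H2-DMb2 window. Outside the joined windows of neighbouring genes, the nearest was a region 1.90 kb beyond the Ciita window, 10542964 to 10543263, called in all 3 lists. Next came a resident and monocyte-derived region 17.1 kb beyond the H2-DMb1 window, 34187339 to 34187488, between Psmb9 and Tap1.

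Of 9 other genes of the class II region, 7 had a region, all 7 with fewer in converted than in monocyte-derived cells (background 71.3%), and 6 with fewer in resident than in monocyte-derived cells (background 55.2%). Their windows share sites, so these genes are not independent of each other. H2-Eb2 and Btnl2 counted the same 2 regions, and Psmb8, Psmb9, Tap1 and Tap2 drew on the same 5. Tap1, a peptide transporter subunit of the class I pathway, had 0 converted, 2 resident and 4 monocyte-derived regions. Brd2 had 2 converted, 2 resident and 7 monocyte-derived, all of them sites within the H2-DMa window. H2-Oa and H2-Ob, which encode the H2-DM inhibitor H2-O, had no region in any list.

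All 11 genes of factors that act at class II promoters had a converted region, where 31.9% of all genes with a region had none. Of these 11, 6 had fewer converted than monocyte-derived regions (background 71.3%) and 5 as many, namely Rfx5 and Rfxank, which encode subunits of RFX, Nfya and Nfyb, which encode subunits of NF-Y, and Creb1. These 5 were named after their values had been seen. Nfyc, encoding the third NF-Y subunit, had 3 converted, 4 resident and 6 monocyte-derived regions. The coactivator genes Crebbp (1 converted, 3 resident and 5 monocyte-derived) and Kat2b (3 converted, 4 resident and 7 monocyte-derived) differed by 4 regions between converted and monocyte-derived cells.

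Upstream of Ciita, 11 of 13 genes had fewer converted than monocyte-derived regions (background 71.3%), and 9 had fewer resident than monocyte-derived regions (background 55.2%). Jak1, a kinase of the interferon receptors, had 2 converted, 3 resident and 9 monocyte-derived regions, and Irf2, an interferon regulatory factor gene, had 5 converted, 5 resident and 10 monocyte-derived. Spi1, which encodes PU.1, had 0 converted, 1 resident and 3 monocyte-derived. Prdm1, encoding the repressor Blimp-1, had 0 converted, 2 resident and 3 monocyte-derived. Stat6, the signal transducer of IL-4, had 2 converted, 6 resident and 4 monocyte-derived regions, the only one of the 13 with more resident than monocyte-derived regions.

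Of 9 genes of peptide loading and class II turnover, 8 had fewer converted than monocyte-derived regions (background 71.3%). Marchf1, a ubiquitin ligase gene that removes class II from the surface, had 4 converted, 4 resident and 13 monocyte-derived regions. The endosomal protease genes Lgmn (2 converted, 3 resident and 6 monocyte-derived) and Ctsb (1 converted, 2 resident and 5 monocyte-derived) followed. In the class I pathway 6 of 9 had fewer converted than monocyte-derived regions, a share near the background of 71.3%. H2-D1, a class I heavy chain gene, had 0 converted, 2 resident and 3 monocyte-derived regions, and Calr, encoding the chaperone calreticulin, had 1 converted, 2 resident and 4 monocyte-derived.

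B cells and dendritic cells also carry class II, so markers of both were counted. Over 10 B cell markers there were 7 converted, 7 resident and 8 monocyte-derived regions, and Ms4a1, Pax5 and Blk, for example, had none in any list. Cr2 (4 converted, 3 resident and 3 monocyte-derived), Cd79a (2 converted, 1 resident and 2 monocyte-derived) and Fcer2a (1 converted, 1 resident and 1 monocyte-derived) held all 7 converted regions of that list; these 3 were named after their values had been seen. Over 10 dendritic cell markers there were 7 converted, 13 resident and 27 monocyte-derived regions, while the class II genes had 5 converted, 15 resident and 29 monocyte-derived regions when a shared site counts for each gene. Among the dendritic cell markers Zbtb46 had 4 converted, 4 resident and 7 monocyte-derived, and Xcr1 had 0 converted, 2 resident and 4 monocyte-derived regions. Clec9a had 0 converted, 2 resident and 3 monocyte-derived, and Batf3 had 0 converted, 0 resident and 3 monocyte-derived regions. Kmo had 2 converted, 2 resident and 5 monocyte-derived, while Ccr7 had none. These windows include 10 kb on each side, where a site may belong to a neighbouring gene. Of any list, 0 regions lay in the bodies of Xcr1, Clec9a, Cd79a and Fcer2a. The body held 1 region each at Cr2, Batf3 and Kmo, and 4 at Zbtb46. The bodies of H2-Ab1, H2-Aa, H2-Eb1 and H2-DMb1 held 0 too. Macrophage markers summed to 8 converted, 18 resident and 27 monocyte-derived regions. Among these Adgre1, which encodes F4/80, had 0 converted, 4 resident and 1 monocyte-derived, Fcgr1 0 converted, 1 resident and 3 monocyte-derived, Lyz2 1 converted, 1 resident and 4 monocyte-derived, and Trem2 0 converted, 0 resident and 3 monocyte-derived. Fewer converted than monocyte-derived regions were found at 2 of 6 B cell markers with a region (background 71.3%). The same held for 8 of 9 dendritic cell and 10 of 10 macrophage markers with a region. Summed per gene, all protein-coding genes had 15791 converted, 24018 resident and 36323 monocyte-derived regions. The part of other cell types in the class II calls was not tested.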

How the data were processed

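Per the submitters' processing notes, Bowtie2 2.2.9 aligned the reads, on the mm10 (GRCm38) build. On peak calling, transposase shift, duplicates and the pooling of samples nothing is given in the sources used here; each can alter which sites were called. The authors deposited 1 peak list per group with a p-value per peak, whose floor is 1e-12 and whose edges fall on a 25 bp grid. Although the names of the lists carry 1e-05, 22.5% of resident, 3.76% of monocyte-derived and 0 converted peaks lie above it, so the lists may not share 1 threshold.

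Gene bodies (21631 protein-coding genes, chromosomes 1 to 19 and X) and promoters were RefSeq's, GRCm38.p6. Exons were not given, so exonic and intronic sites are not told apart. Alternatives were equal list lengths, p at most 1e-05 or 1e-10, windows of 2.5 and 50 kb, merging within 200 bp, a 50% overlap of the shorter peak and, added after seeing the data, leaving out the Brd2 gene body, and leaving out or keeping all peaks tied at the limit of the equal lengths. The 8 genes and all lists were chosen with earlier results of these data known. Beyond the 8 genes, the text names list members whose counts differ by at least 3 regions between any 2 lists; other names are markers without a region, neighbours that share sites, or are marked. The values of 1 listed marker are not reported here. On simulated data 8250 of 8250 regions were recovered and 0 of 600 counts over 200 genes were wrong. The tools were Python 3.11.15, pandas 2.3.3, numpy 2.4.6, scipy 1.17.1, Biopython 1.88 and matplotlib 3.10.9.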

Additional observations from a re-analysis of the deposited data

How the results depend on the processing

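No paired analysis was possible because the lists carry no replicate numbers, being 1 per group, which also kept single replicates from being left out. Of 60 values recomputed (counts of the 3 lists and their 3 differences under 10 alternatives), 35 stayed within 1.5 times the reported value, 24 moved further and 1 changed sign. The reported counts were 4 converted, 12 resident and 24 monocyte-derived regions. At equal list lengths the resident and monocyte-derived counts were 6 and 7, with differences of -3 for converted minus monocyte-derived, -1 for resident minus monocyte-derived and -2 for converted minus resident; fewer peaks enter by construction. The limit fell among tied peaks, and both ways of treating them were added after seeing the data. Both leave the lists at unequal lengths. With ties left out the counts were 4 converted, 5 resident and 5 monocyte-derived, with differences of -1 for converted minus monocyte-derived, 0 for resident minus monocyte-derived and -1 for converted minus resident. With ties kept they were 4 converted, 10 resident and 7 monocyte-derived, with differences of -3 for converted minus monocyte-derived, 3 for resident minus monocyte-derived, a change of sign, and -6 for converted minus resident. At p at most 1e-10 the counts were 0 converted, 0 resident and 1 monocyte-derived, with differences of -1 for converted minus monocyte-derived, -1 for resident minus monocyte-derived and 0 for converted minus resident. With 50 kb on each side they were 9 converted, 20 resident and 38 monocyte-derived. With peaks within 200 bp merged, resident minus monocyte-derived was -7, and outside the Brd2 gene body it was -7 with a converted count of 2. The cause of these changes was not tested beyond the construction of each setting. At p at most 1e-05 H2-Aa had 1 converted and 0 resident regions. Depth is unknown and limits every absent call.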

Other observations

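Between the joined H2-DM windows and the H2-Ab1 window lie 83.0 kb. They hold Psmb9, Psmb8, Tap1 and Tap2, which serve the class I pathway, and H2-Ob. This stretch held 5 regions, 0 in the converted, 3 in the resident and 4 in the monocyte-derived list. Both regions at the shared end of Psmb9 and Tap1, 34187339 to 34187488 and 34187614 to 34187788 on chromosome 17, were called in resident (p-value 8.27e-06 each) and monocyte-derived cells (p-value 4.87e-06 and 1.50e-06). The region inside Tap2, 34210764 to 34210838, was resident only (p-value 5.63e-06). Beyond the H2-Eb1 window, 34347614 to 34347838 was called in resident cells at p-value 8.27e-06 and in monocyte-derived cells at p-value 7.44e-09.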
